A study of Pimephales promelas with 270 samples.

Results

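Unexposed fathead minnow larvae were sampled after 6, 24 and 48 h, with different larvae at each time. The fathead minnow, Pimephales promelas, is a North American cyprinid and a common test species for water pollutants. They comprised 30 libraries out of 266 in the count table, all with an age label of 4 days post fertilization and the control dose label, with 10 libraries taken after 6 h, 10 after 24 h and 10 after 48 h. The labels of age, dose and time define them, with no measured value in the rule. The series set such controls beside larvae held in the beta-blocker propranolol at 0.66 mg/l (the low dose) or 3.3 mg/l, at ages of 4, 5 and 6 days. The larvae described here received no propranolol, and whole larvae were lysed, so no tissue can be told from another. The labels do not say which end of the holding time the age refers to, whether a library came from a single larva or several, or whether libraries of a group came from separate vessels. P-values therefore set a difference against the spread between libraries, which may be partly technical. In the main tests this spread was estimated from the control libraries of all ages together. The treatment text of every sample names another compound, ethinyl estradiol, and the dose labels and series title were followed instead. Each time point is an exposure set with a library code of its own, so a difference between times cannot be told apart from a difference between sets, and no clock time of sampling is given.

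In the days around hatching a fish larva lives on its yolk, finishes building organs such as the gut, liver and swim bladder, and gains the muscle and sensory function needed to swim and feed. Transcripts for organ function generally appear or rise over this period, while transcripts of embryonic programmes and of the hatching gland decline. In whole-larva RNA, fewer cells of a type and less RNA per cell cannot be told apart. The transcripts carry bare numbers, and 0 of 34856 were found among RefSeq's gene records, which leaves genes, pathways and cell types unnamed and the age label unchecked against marker genes. The 4 identifiers printed below were taken by a rule of size: for each step in time, the largest rise and the largest fall among called transcripts of moderate or high level whose 10 later and 10 earlier libraries did not overlap.

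Library totals were 12.9 to 17.5 M counts at 6 h (M, mega), 10.8 to 26.0 M at 24 h and 7.79 to 23.2 M at 48 h, where 3 libraries lay under 9 M. The mean totals did not pass a test between adjacent times (permutation adjusted p = 0.848 and 0.739). No pair of libraries within a group was a duplicate: the chi-square of their counts divided by its degrees of freedom was 6.92 or more in all 135 pairs. After all libraries were thinned to 7794112 counts, 33348 to 33621 transcripts had a count at 6 h, 33403 to 33924 at 24 h and 33563 to 34152 at 48 h. The mean was higher at 24 h than at 6 h by 252 transcripts (permutation adjusted p = 0.0068, 10 libraries each), and the difference of 73.1 between 48 h and 24 h did not pass (adjusted p = 0.63). The 10 most abundant transcripts held 7.80% to 9.87% of the counts at 6 h, 7.31% to 8.98% at 24 h and 7.58% to 9.42% at 48 h, with no difference that passed the test (adjusted p = 0.63 for each step).

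Between 6 h and 24 h, 2699 of 32555 transcripts differed in the 4-day controls, or 8.29% (edgeR quasi-likelihood test on the control libraries of all 9 sets, false discovery rate 0.05). Of these, 1736 rose (5.33% of those tested) and 963 fell (2.96%). Between 24 h and 48 h, 1541 differed, or 4.73%, of which 1170 rose (3.59%) and 371 fell (1.14%). Over the whole span, 48 h against 6 h, 7576 differed, or 23.3%, of which 4310 were higher at 48 h (13.2%) and 3266 lower (10%). The 3 comparisons share libraries, and the first step covers 18 h while the second covers 24 h. Rises made up 64.3% of the calls in the first step and 75.9% in the second. The number of second-step falls depended on the libraries fitted. It was 567 with the 4-day controls fitted alone, where rises were 65.5% of 1642 calls, and 674 in that fit without library 2 of 48 h. Without the 3 libraries of 48 h under 9 M counts it was 180, and rises were 84.2% of 1142 calls. First-step falls were 1233 in the fit alone, 1604 there without library 2 of 24 h and 1462 without library 1 of 6 h. Over the whole span rises were 56.9% of the calls in the main fit and 51.9% of 7873 in the fit alone. Without the 3 libraries of 48 h under 9 M counts they were 61.2% of 6109.

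Most called changes were modest, and rises reached larger sizes than falls. In the first step the median log2 fold change was 0.63 for transcripts that rose and -0.44 for those that fell, and 54.7% of all calls were under 1.5-fold. The second step had medians of 0.82 and -0.46, and 40.0% of calls were under 1.5-fold. More than 2-fold changes were 459 rises and 97 falls in the first step, and 455 rises and 39 falls in the second. Changes above 4-fold were 113 rises and 12 falls, then 161 rises and 5 falls. The median log2 fold change of all tested transcripts was 0.01 in the first step and -0.0012 in the second.

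**Figure D1:**
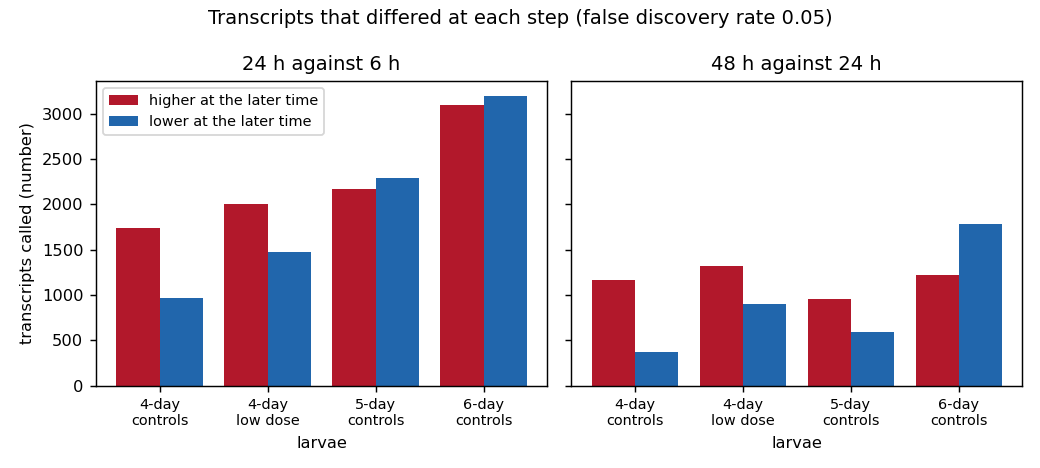
Bars give the number of transcripts called at a false discovery rate of 0.05, higher (red) or lower (blue) at the later time, for the first step (left) and the second (right) in 4-day controls, 4-day low-dose larvae, 5-day controls and 6-day controls. In 4-day controls rises outnumber falls, at 1736 against 963 and then 1170 against 371. They also do in the low-dose larvae, at 2004 against 1479 and then 1320 against 903. The 5-day controls have 2169 rises against 2293 falls and then 960 against 587. The 6-day controls have 3100 rises against 3200 falls and then 1225 against 1786.

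For a typical transcript the move between times was smaller than the spread between libraries of a time. Among the 22933 transcripts with a mean log2 CPM of at least 1 (CPM, a transcript's counts per M counts of the scaled library total), the median SD between libraries was 0.26 at 6 h, 0.25 at 24 h and 0.26 at 48 h on the log2 scale. The median absolute difference of group means was 0.15 between 6 and 24 h, 0.12 between 24 and 48 h and 0.20 between 6 and 48 h. The mean moved by more than 1 SD for 23.3% of these transcripts in the first step, for 16.6% in the second and for 37.6% over the whole span. It moved by more than 2 SD for 4.17%, 2.65% and 12.3%.

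Complete separation of the 10 later from the 10 earlier libraries was found for 285 transcripts in the first step (0.875% of those tested), 220 upward and 65 downward. It was found for 275 in the second step (0.845%), 247 upward and 28 downward, and for 1263 over the whole span (3.88%), 951 upward and 312 downward. In 48 transcripts all 3 groups lay in separate ranges that ascended from 6 h to 48 h, and in 5 transcripts they descended. The 48 gained a median of 2.97 in mean log2 CPM between 6 h and 48 h, from 0.88 to 7.35. The 5 changed by -4.65 to -1.91.

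Outright appearance was rare. For this count CPM was taken on the library total without scaling. Of 34856 transcripts, 33 had a median under 0.1 CPM at 6 h and of at least 1 CPM at 48 h, while 2 went the other way. In the first step 6 crossed upward and 3 downward, and in the second 7 upward and 1 downward. There were 26 transcripts with a count of 0 in all 10 libraries at 6 h, 9 at 24 h and 7 at 48 h. Of the 26, 4 had a count in every library at 48 h. The table holds transcripts with a total of at least 166 counts over all libraries of the series, so transcripts below such a minimum are not seen here.

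Calls were a larger share of abundant than of scarce transcripts, and rises made up more of the calls among scarce ones. In the lowest of 5 level classes 167 of 5588 transcripts were called in the first step, of which 122 rose, and 142 in the second, of which 136 rose. In the first step 2.99% of transcripts with a mean log2 CPM below 0 were called, against 12.4% of those above 6. The share of calls that rose went from 73.1% in the lowest class to 46.8% in the highest. In the second step it went from 95.8% to 45.7%, and over the whole span from 79.0% to 42.7%. The median size of a called log2 fold change fell with level. It went from 1.45 to 0.37 in the first step and from 1.74 to 0.39 in the second. A scarce transcript needs a larger change to pass the test. Transcripts were kept for testing on the 88 control libraries together, which include older larvae. One scarce in 4-day larvae could thus be kept for its level at older ages. With the 4-day controls fitted alone, 29751 transcripts were tested, and rises were 59.9% of first-step calls and 65.5% of second-step calls. In the main fit these shares were 64.3% and 75.9%, and with no filter 63.9% and 73.0%. Level classes were not examined in those other fits, so the filter's part in this pattern was not tested.

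**Figure D2:**
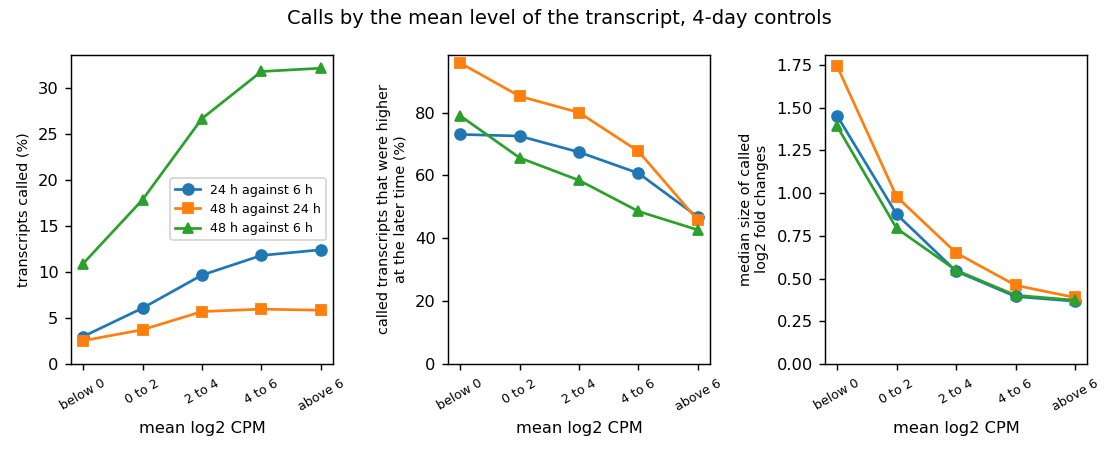
For 5 classes of mean log2 CPM over the 30 libraries (x axis), the panels give the percent of transcripts called, the percent of called transcripts that were higher at the later time, and the median size of called log2 fold changes, for the first step, the second step and the whole span. The share of calls that rose is at its highest below 0 (73.1%, 95.8% and 79.0%). It is under 50% above 6 (46.8%, 45.7% and 42.7%). Transcripts were filtered on controls of all ages, and the filter's part in this pattern was not tested.

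The rising transcripts were a smaller part of the RNA than the falling ones at the start, and the order was reversed at the end. The 4310 transcripts higher at 48 h than at 6 h held 9.02% to 10.8% of a library's counts at 6 h (median 9.64%), 11.6% to 13.4% at 24 h (median 12.7%) and 14.7% to 17.2% at 48 h (median 15.6%). The 3266 lower at 48 h held 18.3% to 20.2% at 6 h (median 19.2%), 15.8% to 17.2% at 24 h (16.2%) and 13.1% to 14.3% at 48 h (13.8%). The ranges of the 3 times did not overlap in either set. These sets were chosen by the 6 h and 48 h libraries, so their values at those times are a description. The 24 h libraries, which did not choose them, lay in between, where an unrelated group would also tend to lie.

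The 24 h profile lay between those of 6 h and 48 h for most transcripts that changed. A test for any change over the 3 times called 6512 transcripts, or 20% (edgeR, false discovery rate 0.05). In 3250 of them (49.9%) the means ascended from 6 h through 24 h to 48 h, and in 2203 (33.8%) they descended, so that 83.7% had 24 h in the middle, against 52.6% of all tested transcripts. The mean at 24 h was the highest of the 3 in 531 (8.15%) and the lowest in 528 (8.11%). Ascending transcripts spanned a median of 0.76 in log2 CPM and descending ones 0.48.

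**Figure D3:**
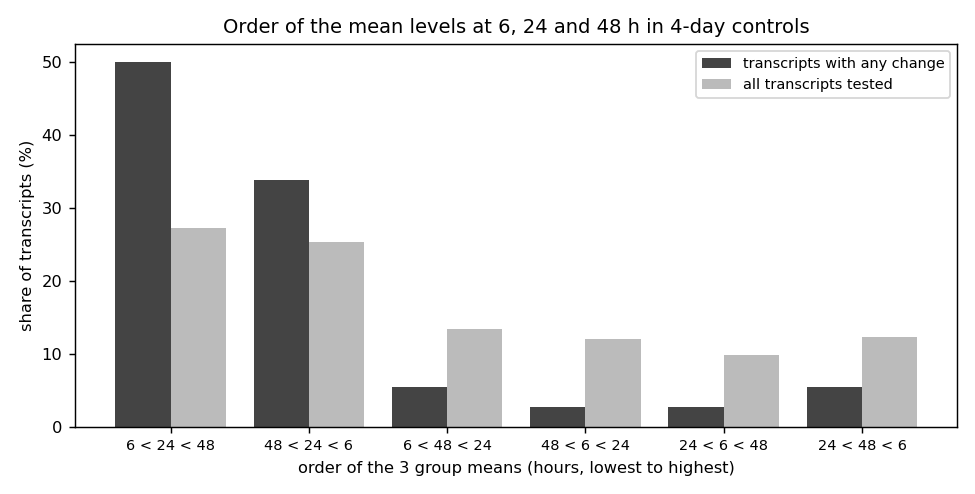
Bars give the percent of transcripts with each of the 6 orders of mean level (x axis, hours from lowest to highest), for the 6512 with any change (dark) and for all 32555 tested (light). The ascending order holds 49.9% and the descending order 33.8% of the changed transcripts.

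A direct test of 24 h against the mean of 6 h and 48 h called 126 transcripts, or 0.387%, with 24 h above that mean in 76 (0.233%) and below it in 50 (0.154%) (edgeR, false discovery rate 0.05), and 2757 had an unadjusted p under 0.05. The mean at 24 h was above both ends in 44 of the 76 and below both ends in 20 of the 50. The count was 83 after thinning to the smallest total of the 88 control libraries, where 27166 transcripts were tested. It was 79 without library 4 of the 6 h group in the fit of 4-day controls alone. The share above that mean, 60.3% here, was 71.9% of 128 in that fit with all 30 libraries, 77.2% of 101 with limma-voom, 52.9% of 187 with DESeq2 and 54.2% of 107 with sums of adjacent numbers. The count below it was thus 23 with limma-voom and 88 with DESeq2. In the low-dose libraries of the same sets, which had no part in these calls, the sign was the same for 71 of the 76 (93.4%, against 51.5% of all tested) and 46 of the 50 (92.0%, against 48.5%). In 5-day controls it was the same for 57.9% and 32.0%, against 50.6% and 49.4% of all tested. In 6-day controls it was the same for 69.7% and 42.0%, against 47.2% and 52.8%.

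A library's place on the line from the mean profile of 6 h (position 0) to that of 48 h (position 1) was measured over 22979 transcripts, with each 6 h or 48 h library left out of its own mean. The 6 h controls lay from -0.0737 to 0.195 and the 48 h controls from 0.826 to 1.08. The 24 h controls, which did not define the line, lay from 0.306 to 0.622, with a median of 0.554. The 3 groups did not overlap. A further group that differed from both ends in unrelated ways would also fall near the middle of the line. The place of the 24 h controls alone therefore does not show an ordered course. Low-dose larvae of the same sets, also not used, lay from -0.121 to 0.132 at 6 h, 0.405 to 0.669 at 24 h and 0.819 to 1.09 at 48 h, which again left gaps between the times.

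Older controls were placed on the same line, with 10 libraries a group and 8 at 6 days and 48 h. The medians were 0.687, 0.872 and 1.10 for 5-day controls at 6, 24 and 48 h, and 0.953, 1.13 and 1.249 for 6-day controls. The 5-day controls at 6 h ranged from 0.291 to 0.727 and overlapped the 4-day controls at 24 h. The 6-day controls at 6 h ranged from 0.871 to 1.07 and overlapped the 4-day controls at 48 h. So did the 5-day controls at 24 h (0.714 to 0.967) and 48 h (0.947 to 1.172) and the 6-day controls at 24 h (0.987 to 1.165). Between 6 h and 48 h the median moved by less in older larvae. The line was drawn from the 4-day controls at these times, so their own move on it is near 1 by construction. Other directions of change are not seen on this line. The smaller move therefore does not show less change in older larvae, and the difference was not tested.

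**Figure D4:**
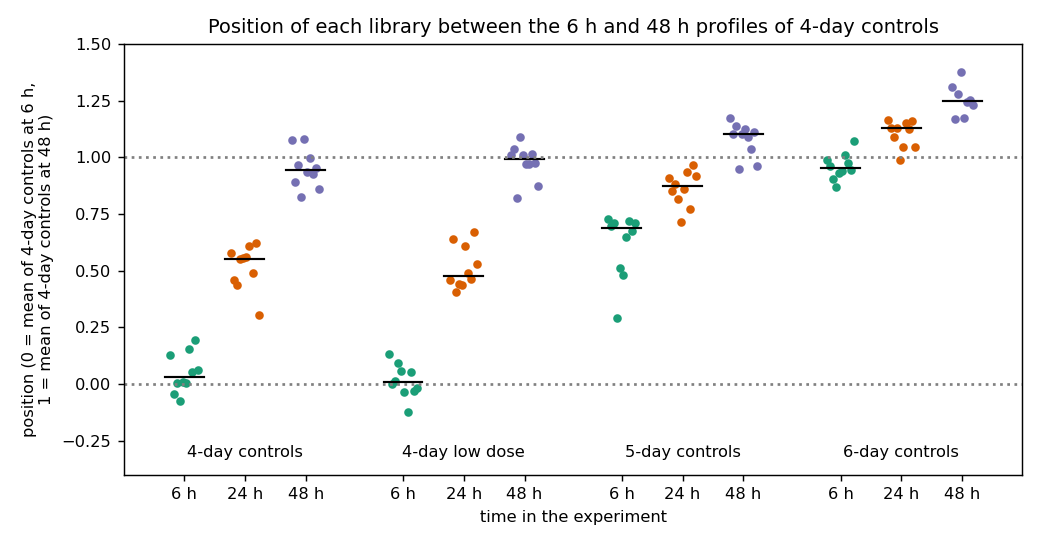
Each point is a library, grouped by larvae and by time (x axis), and the y axis is its position on the line from the mean profile of 4-day controls at 6 h (0) to that at 48 h (1), with group medians as bars. The 4-day controls at 24 h lie between 0.306 and 0.622, and the medians of the older controls go from 0.687 to 1.249.

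The largest rise of the first step by the rule was that of FMt033226. At 6 h it had a lowest, median and highest level of 0, 0.153 and 1.36 CPM, from 0 to 19 counts. At 24 h these levels were 3.25, 10.03 and 89.2 CPM, and at 48 h 6.48, 13.4 and 50.1 CPM. All 24 h and 48 h libraries lay above all 6 h libraries, while 24 h and 48 h overlapped throughout. The log2 fold change was 6.08 ± 1.09 (SE, edgeR adjusted p = 2.9e-05) in the first step, a 67.6-fold rise, and -0.21 ± 0.72 in the second (adjusted p = 0.94). Without library 2 of 24 h, the one at 89.2 CPM, it was 5.45 against 6.07 for the same fit of 4-day controls alone with all libraries. With limma-voom the first step was 6.17 and missed the threshold (adjusted p = 0.23).

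The low-dose larvae of 4 days gave a like course of medians for FMt033226, at 0.16, 14.2 and 13.7 CPM. Their first step was 5.49 ± 0.75 (SE, edgeR adjusted p = 6.3e-06). Unlike in controls, the low-dose ranges at 6 h (0 to 1.14 CPM) and 24 h (0.545 to 60.2 CPM) overlapped. In older controls the level of FMt033226 at 6 h varied widely between libraries. The medians were 15.3 CPM at 5 days and 6 h (range 0.0583 to 45.0) and 7.19 CPM at 6 days and 6 h (0.182 to 37.3). Its first step in 4-day controls exceeded the mean of the older controls' by 5.43 ± 1.22 on the log2 scale (SE, edgeR adjusted p = 0.0012). FMt033226 was chosen by the size of that step in the same 4-day libraries. The excess and its p-value are thus not independent of the choice.

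FMt038110 had the largest rise of the second step by the rule. Its lowest, median and highest levels were 0, 0.329 and 1.29 CPM at 6 h, 0.0773, 1.83 and 4.27 CPM at 24 h and 14.8, 33.8 and 72.1 CPM at 48 h. Every 48 h library lay above every earlier one, and the 6 h and 24 h ranges overlapped. In the second step it rose by 4.44 ± 0.36 on the log2 scale (SE, edgeR adjusted p = 7.1e-17), or 21.7-fold. The first step was 2.08 ± 0.51 (adjusted p = 0.0034), and it missed the threshold with limma-voom (1.94, adjusted p = 0.27).

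Older controls had FMt038110 medians of 6.25, 33.8 and 98.1 CPM at 5 days (6, 24 and 48 h) and 46.1, 70.6 and 121 CPM at 6 days. Its steps there were 2.77 ± 0.32 (SE, edgeR adjusted p = 2.1e-10) and 1.34 ± 0.29 (adjusted p = 0.0019) at 5 days. At 6 days they were 0.60 ± 0.29 (adjusted p = 0.14) and 0.81 ± 0.30 (adjusted p = 0.073), which did not pass. The second step of the 4-day controls exceeded the mean of the older ones by 3.36 ± 0.41 (edgeR adjusted p = 2.9e-09). FMt038110 was chosen by the size of that step in the same 4-day libraries, so this test is not independent of the choice.

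The largest falls by the rule were those of transcripts with neighbouring numbers, FMt008994 in the first step and FMt008993 in the second. FMt008994 had a lowest, median and highest level of 1546, 2546 and 3975 CPM at 6 h, 456, 593 and 1392 CPM at 24 h and 50.5, 111 and 192 CPM at 48 h. All 3 times lay in separate ranges. Its log2 fold change was -1.88 ± 0.25 in the first step (SE, edgeR adjusted p = 1.4e-08) and -2.60 ± 0.26 in the second (adjusted p = 2.4e-13). Over the whole span it was -4.48 ± 0.28 (adjusted p = 3.4e-24), a 22.3-fold lower level at 48 h than at 6 h.

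FMt008993 went from 798 to 1472 CPM at 6 h (median 1025) through 159 to 796 CPM at 24 h (257) to 17.5 to 82.3 CPM at 48 h (43.6). Its ranges were separate too, with steps of -1.79 ± 0.30 (SE, edgeR adjusted p = 6.3e-06) and -2.73 ± 0.31 (adjusted p = 7.0e-11). The ratio of FMt008993 to FMt008994 in a library stayed between 0.316 and 0.572, with medians of 0.449, 0.425 and 0.385 at the 3 times. Copies or forms of one gene can draw the same reads, the counting rule for these is unknown here, and the pair may therefore not be independent.

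Levels of both were lower in older controls at matched times. FMt008994 had medians of 243, 77.0 and 32.0 CPM at 5 days and 73.2, 34.6 and 24.1 CPM at 6 days (6, 24 and 48 h), and FMt008993 had 98.2, 24.1 and 13.2 CPM, then 30.9, 13.6 and 11.1 CPM. The second step of FMt008994 was steeper in 4-day controls than in the mean of the older ones, by -1.62 ± 0.30 (SE, edgeR adjusted p = 0.00013), and so was that of FMt008993, by -2.08 ± 0.37 (adjusted p = 5.8e-05). For the first step the same differences were -0.30 ± 0.30 (edgeR adjusted p = 0.54) and -0.03 ± 0.36 (adjusted p = 0.97) and did not pass. FMt008994 was chosen by its first step and FMt008993 by its second, in the same 4-day libraries. These tests are thus not independent of the choice.

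**Figure D5:**
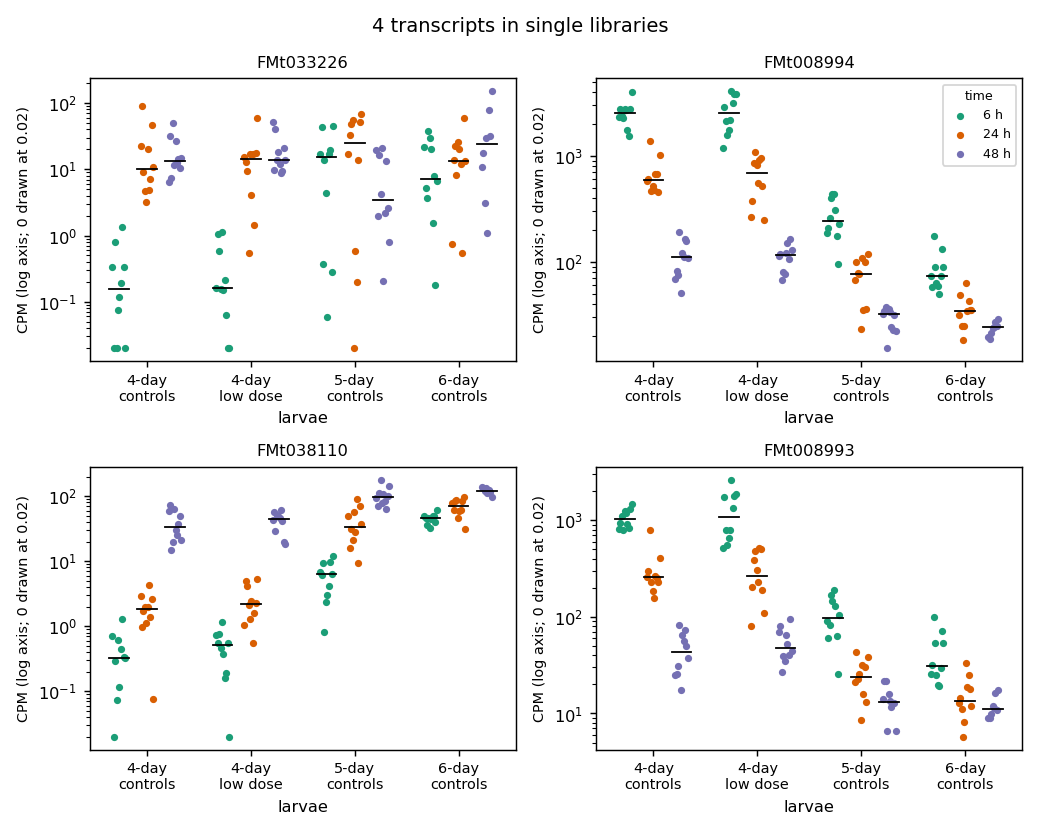
Each point is the level of a transcript in a library in CPM (log axis, with 0 drawn at 0.02), by larvae (x axis) and time (colour), with group medians as bars. In 4-day controls FMt033226 goes from a median of 0.153 CPM at 6 h to 10.03 at 24 h, FMt038110 from 1.83 at 24 h to 33.8 at 48 h, and FMt008994 and FMt008993 descend at each time.

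The low-dose larvae at 4 days offer 30 further libraries from the same 3 sets, fitted alone over 29212 transcripts. Their first step called 3483 transcripts (11.9%), with 2004 rises (6.86% of those tested) and 1479 falls (5.06%). Of the 1736 transcripts that rose in controls, 1673 could be tested there. Of these 96.2% had an estimate above 0, against 49.1% of all tested, and 1030 were called as rises, which is 59.3% of the control list and 51.4% of the low-dose list. Of the 963 that fell in controls, 945 could be tested, 93.5% of these had an estimate below 0 (50.9% of all tested), and 429 were called as falls (44.5% of the list, 29.0% of the low-dose list). For the second step the low dose called 2223 transcripts (7.61%), with 1320 rises (4.52%) and 903 falls (3.09%). Of the 1098 rises of the control list that could be tested there, 97.8% had the same sign (47.6% of all tested), and of the 369 falls 96.2% (52.4%). Called in the same direction were 772 of the 1170 rises and 169 of the 371 falls. In neither step was a transcript of these lists called in the opposite direction. For the whole span the low dose called 8050 transcripts (27.6%), 4010 higher at 48 h (13.7%) and 4040 lower (13.8%), and these included 2864 of the 4310 higher and 2119 of the 3266 lower in controls. The low-dose larvae were exposed to propranolol, and they share exposure sets with the controls.

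Older controls share no library and no set with these larvae. They were fitted together with them, with a shared filter, scaling and estimate of spread, so their calls are not fully independent. Their first step called 4462 transcripts at 5 days (13.7%) and 6300 at 6 days (19.4%), and their second step 1547 (4.75%) and 3011 (9.25%). In the first step, 73.9% of the 1736 rises had an estimate above 0 in 5-day controls (50.05% of all tested) and 66.2% in 6-day controls (48.5%). Called in the same direction were 561 at 5 days (32.3% of the list, 25.9% of the 5-day rises, where 6.66% of those tested rose) and 505 at 6 days (29.1%, 16.3% and 9.52%). Called in the opposite direction were 60 (3.46% of the list) and 145 (8.35%), where 7.04% and 9.83% of all tested fell.

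Falls of the first step were met by rises as well as falls in the older larvae. Of the 963, 59.5% had an estimate below 0 at 5 days (49.9% of all tested) and 47.9% at 6 days (51.5%). At 5 days 166 were called as falls and 28 as rises, where 7.04% of all tested fell and 6.66% rose. At 6 days 149 were called as falls and 142 as rises, or 15.5% and 14.7% of the list, where 9.83% of all tested fell and 9.52% rose.

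In the second step, 83.2% of the 1170 rises had an estimate above 0 at 5 days (49.1% of all tested) and 68.9% at 6 days (51.6%). Called as rises were 297 at 5 days (25.4% of the list, where 2.95% of those tested rose) and 87 at 6 days (7.44%, where 3.76% rose). Of the 371 falls, 78.4% and 63.6% had the same sign (50.9% and 48.4% of all tested), and 58 and 46 were called as falls (15.6% and 12.4% of the list, where 1.80% and 5.49% of those tested fell).

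Tested directly, the first step of 4-day controls differed from the mean of the same step in 5-day and 6-day controls for 4843 transcripts, or 14.9% (edgeR interaction contrast, false discovery rate 0.05). The 4-day step was the higher for 2667 (8.19%) and the lower for 2176 (6.68%). Among the 2667 the median step was a log2 fold change of 0.25 at 4 days, -0.24 at 5 days and -0.33 at 6 days. For 1796 of them (67.3%) it was above 0 at 4 days and below 0 at both older ages. Among the 2176 the medians were -0.28, 0.24 and 0.36, and 1729 (79.5%) were below 0 at 4 days and above 0 at both older ages. These medians and signs describe transcripts chosen by the same contrast, which favours opposite signs. Of the 2667, 777 were called as rises at 4 days and 1297 as falls at 6 days, where 5.33% and 9.83% of all tested were so called. Both calls were made for 142. Of the 2176, 496 were called as falls at 4 days and 1087 as rises at 6 days, where 2.96% and 9.52% were so called. Both calls were made for 142 here too. Against the 5-day controls alone 2436 transcripts differed (7.48%), with the 4-day step higher for 4.4% of those tested and lower for 3.08%. Against the 6-day controls alone 4780 differed (14.7%), higher for 8.05% and lower for 6.63%.

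The second step differed from the mean of the older controls for 1106 transcripts, or 3.4%, with the 4-day step higher for 791 (2.43%) and lower for 315 (0.968%). Among the 791 the median step was 0.72 at 4 days, -0.05 at 5 days and -0.16 at 6 days. For 348 of them (44.0%) it was above 0 at 4 days and below 0 at both older ages. Among the 315 the medians were -0.23, 0.18 and 0.31, and 245 (77.8%) were below 0 at 4 days and above 0 at both older ages. These medians and signs too describe transcripts chosen by the same contrast. Of the 791, 499 were called as rises at 4 days and 222 as falls at 6 days, where 3.59% and 5.49% of all tested were so called. Both calls were made for 18. Of the 315, 84 were called as falls at 4 days and 158 as rises at 6 days, where 1.14% and 3.76% were so called. Both calls were made for 8. Against 5-day controls alone 484 differed (1.49%), higher at 4 days for 1.2% of those tested and lower for 0.289%. Against 6-day controls alone 1400 differed (4.3%), higher for 2.93% and lower for 1.37%. Age and exposure set cannot be told apart in these tests either.

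The lists were also read in a difference of age that shares no library with them, 6-day against 5-day controls at 6 h, where 3677 of 32555 transcripts differed (11.3%). Of these, 2047 were higher at 6 days (6.29%) and 1630 lower (5.01%). Of the 1170 rises of the second step, 90.4% had an estimate above 0 in it, against 49.0% of all tested. Of these 1170, 732 were called as higher at 6 days, or 62.6% of the list and 35.8% of all transcripts so called. Of the 1736 rises of the first step, 67.2% had an estimate above 0, and 524 were called (30.2% of the list, 25.6% of those higher at 6 days). For the falls, 76.0% of the first list and 81.1% of the second had an estimate below 0, against 51.0% of all tested. The 2 lists share the 24 h libraries, and the difference between them was not tested. The 5-day and 6-day groups are also separate exposure sets, so age and set cannot be told apart here.

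The orders of the group means were then read in the other larvae. Of the 3250 with ascending means, 83.9% ascended in 4-day low-dose larvae (25.5% of all tested), 53.2% in 5-day controls (16.9%) and 43.8% in 6-day controls (18.9%). Of the 2203 with descending means, 84.0% descended in low-dose larvae (25.7%), 42.0% in 5-day controls (19.0%) and 31.1% in 6-day controls (17.6%). The 48 transcripts with 3 separate ascending ranges ascended in the low-dose means in 48 of 48 cases, with separate ranges there too in 32, where 93 transcripts in all had such ranges. Their means ascended in 38 in 5-day controls and in 25 in 6-day controls, with separate ranges in 0 of 48 at either age, where 6 transcripts in all had them at each. The 5 with descending ranges descended in the low-dose means in 5, with separate ranges in 1, where 3 transcripts in all had them. In the means of 5-day and 6-day controls they descended in 4 and 3, with separate ranges in 0. At these ages 0 of all tested transcripts had separate descending ranges, so this 0 does not set the 5 apart.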

How the data were processed

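Whole-number read counts per transcript were used as the authors deposited them, with no normalization. Per the labels' protocols, libraries were made from 250 ng RNA with the SENSE mRNA-Seq kit V2, and the series' design text names a set of known transcripts as the mapping target. The submitters' processing notes list edgeR 3.26.8, limma 3.40.6 and bcl2fastq 2.19.1 without saying what each did. Which aligner, counting rule and build were used is not given in the sources used here.

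Tests used edgeR 4.0.16 in R 4.3.3 (TMM scaling, filterByExpr, robust quasi-likelihood fit) on the 88 control libraries together, with Benjamini-Hochberg adjustment over 32555 transcripts and a threshold of 0.05. The SE of a log2 fold change was taken from the change and the F statistic (size over the root of F). Levels are TMM-scaled CPM, except in the counts of transcripts that appeared or disappeared, which used unscaled library totals. Levels of low-dose libraries were scaled together with the controls. Log2 CPM used a prior count of 2. Differences in library measures used permutation tests (two-sided, 100000 resamples, adjusted over 8 comparisons). Python 3.11.15, NumPy 2.4.6 and matplotlib 3.10.9 were used for tables and plots. The fit was also run on simulated counts with known changes, and the outcome is not reported here. That run held no changes in scarce transcripts and no differences between sets, so it cannot speak to either.

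The larvae, lists and tests were chosen with earlier results of these data known. The identifiers named passed the threshold with separate ranges of libraries and averaged 1 or more in log2 CPM, a rule that 209 rises and 63 falls met in the first step and 216 and 27 in the second. Alternatives were RLE scaling, no filter, limma-voom 3.58.1, DESeq2 1.42.0, sums of libraries with adjacent label numbers, thinned counts, the 30 libraries alone, a replicate block and leaving out single libraries. The fits without the farthest or the shallow libraries were added after the data were seen. Thinned fits used the smallest total of the libraries fitted, which for the main tests were the 88 controls. The depth of 7794112 counts applies to the library measures alone.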

Additional observations from a re-analysis of the deposited data

Results flagged for a closer look

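Values far from the rest of their group, by the gap to the next value over the range, were found in 7 of 72 groups examined. Chance gives about 1 group in 20 where values follow a normal distribution. Levels in CPM were examined without logs and can be skewed. FMt033226 in 24 h controls, for example, had a median of 10.03 CPM in a range of 3.25 to 89.2 CPM. The 7 therefore cannot be weighed against that rate. Library 11 of the 6 h controls lay at a root-mean-square log2 distance of 0.475 from the mean of the other libraries of its group, and library 2 of the 48 h controls at 0.543, each farther than the rest. FMt033226 reached 89.2 CPM in library 2 of the 24 h controls, 60.2 CPM in library 29 of the 4-day low-dose larvae at 24 h and 60.3 CPM in library 13 of the 6-day controls at 24 h. FMt008994 reached 3975 CPM in library 14 of the 6 h controls, and FMt008993 reached 796 CPM in library 4 of the 24 h controls.

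Steps that differed between 4-day controls and the mean of older controls by the interaction test were 4843 transcripts in the first step and 1106 in the second. The named transcripts were chosen by the size of a step in the same 4-day libraries. Of these, FMt033226 differed in the first step by 5.43. In the second step FMt008994 differed by -1.62, FMt038110 by 3.36 and FMt008993 by -2.08, all on the log2 scale.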

How the results depend on the processing

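Total counts of calls stayed within 1.5 times the reported value under every alternative run, except for the 126 transcripts of 24 h against the mean of 6 h and 48 h, which became 83 with thinned counts and 79 to 152 on leaving out single libraries in the fit of 4-day controls alone (79 without library 4 at 6 h). Counts by direction moved by more: beside the values given with the results, the 315 lower in the second-step difference between 4-day and older controls were 489 with DESeq2, and the 587 second-step falls of 5-day controls were 377 with sums of adjacent numbers. The share of rises in the first step was 59.9% in the fit of 4-day controls alone. There it was 53.4% without library 2 at 24 h and 54.0% without library 1 at 6 h. On leaving out single libraries in that fit, the first step gave 2630 to 3445 calls and the second 1342 to 1814. The whole span gave 7240 to 8084 and any change 6267 to 7157. Sums of adjacent numbers gave 2250 and 1442 for the steps, thinned counts 2031 and 1312, DESeq2 2999 and 1741, and the fits without the farthest library of each group 2433 and 1390. Without the 3 libraries at 48 h under 9 M counts the second step gave 1142, of which 180 were falls. The label number as a replicate block gave 3102 and 1640, against 3072 and 1642 for the same fit without it. Libraries with the same number at different times correlated at a mean of 0.0317 in their deviations (-0.164 to 0.233). Those with different numbers correlated at a mean of -0.00349 (-0.282 to 0.509). Of 30 libraries, 4 correlated best with a library of their own number at another time, a count with no chance rate set beside it. No strong pairing by number was seen, and a weak one was not tested. The difference in the number of transcripts with a count between 48 h and 24 h, which did not pass, reversed without thinning, to -29.4 (permutation adjusted p = 0.797). FMt033226, which did not pass in the second step, changed sign there with limma-voom (0.32), with the replicate block (0.16), without the farthest libraries (0.29) and without library 2 at 24 h (0.41). The cause was not tested.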

Other observations

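Called transcripts often had a neighbour in number that was called the same way. Of the 1736 rises of the first step, 20.3% had a transcript with an adjacent number that also rose, against 7.72% of all tested transcripts, and of the 963 falls 16.4% had an adjacent fall, against 4.25%. In the second step these shares were 25.2% against 5.27% for rises and 8.89% against 1.67% for falls. What adjacent numbers share is not stated in the sources used here, and a count of transcripts may therefore exceed the count of genes.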
